A study of Mus musculus with 4 samples.

Results

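A group of 7 genes of the epithelial sodium channel (ENaC) and of the aldosterone pathway that sets its activity was taken by symbol from 31053 genes: *Scnn1a*, *Scnn1b* and *Scnn1g*, which encode the α, β and γ subunits of the channel, *Nr3c2*, *Hsd11b2*, *Sgk1* and *Nedd4l*. They are described across the distal nephron and collecting duct of control and *Tfap2a*-deficient mice. UMIs of all 7 genes were found in each of the 4 libraries. In the mouse build GRCm38.p6, *Scnn1a* lies at chr6:125314271-125344943, *Scnn1b* at chr7:121865038-121918728, *Scnn1g* at chr7:121734420-121768482, *Nr3c2* at chr8:76898083-77245012, *Hsd11b2* at chr8:105518746-105523988 and *Sgk1* at chr10:21882184-21999903.

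ENaC is the channel through which aldosterone-sensitive tubule cells take up sodium from the tubule fluid, and all of its subunits are needed for full activity. Aldosterone binds the mineralocorticoid receptor, the product of *Nr3c2*. Cortisol and corticosterone bind this receptor as well, and 11β-hydroxysteroid dehydrogenase type 2, the product of *Hsd11b2*, inactivates them in cells that respond to aldosterone. The activated receptor induces *Sgk1*, a kinase that phosphorylates the ubiquitin ligase NEDD4-2, the product of *Nedd4l*, and thereby keeps this ligase from removing ENaC from the apical membrane.

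Single-nucleus RNA-seq was performed on kidney slices, with the cortex trimmed to enrich for the medulla. They came from male mice aged 12 weeks, 2 control and 2 knockout, with 1 library per mouse. Both groups carried homozygous floxed *Tfap2a* (Tfap2a Flox/Flox). The control mice had no Cre, and the knockout mice (Hoxb7Cre+;Tfap2a fl/fl) carried a Cre driven by *Hoxb7*, which recombines in collecting ducts and the epithelia of the lower urinary tract, so that TAL, DCT and other nephron cells of the knockout mice are not where the deletion is driven. The deletion removes internal exons of *Tfap2a*, and a 3′ count need not fall with it, so the UMIs of *Tfap2a* do not check the genotype. In control 1, control 2, knockout 1 and knockout 2, the order in which values per mouse are given throughout, *Tfap2a* was at 119, 149, 80.9 and 86.6 CPM (the UMIs of a gene in a class of 1 mouse, scaled to a common total) in CNT and at 109, 124, 89.1 and 157 CPM in outer CD-PCs, and no class passed the test between genotypes. In the deep medullary epithelium of the pelvis (DMEP) it had 9, 11, 0 and 0 UMIs.

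In all, 27341 nuclei were kept (7737, 5430, 7997 and 6177), with a median of 2505 to 2797 UMIs per nucleus. The libraries held 42138345, 24998797, 44964099 and 22179410 UMIs over all barcodes, and 75 barcodes occurred in more than 1 library. Control 1 and knockout 1 stood apart from the others by more free RNA, estimated at 5.87% to 17.9% of the UMIs of the 6 classes below against 1.81% to 8.32% in control 2 and knockout 2. Clusters were made and named without the 7 genes, from lists of marker genes, so each name below means nuclei like that cell type. The classes compared were the thick ascending limb (TAL, 5194 nuclei), the distal convoluted tubule (DCT, 981), the connecting tubule (CNT, 506), principal cells of the cortical and outer medullary collecting duct (outer CD-PC, 553), inner medullary collecting duct (IMCD, 666) and intercalated cells (IC, 634). A further 2118 nuclei in mixed, damaged or unnamed clusters were set aside.

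The markers of each class were present in it. Since the classes were named by these markers, the sums describe the classes and do not check their names. The 7 outer CD-PC markers, *Aqp2* and *Aqp3* among them, summed to 9871 to 13550 CPM in outer CD-PCs and 1553 to 3000 CPM in CNT, and the 6 CNT markers, such as *Slc8a1*, summed to 66955 to 85397 CPM in CNT and 950 to 3212 CPM in outer CD-PCs. In IMCD the 7 IMCD markers summed to 23522 to 36960 CPM. The classes shade into their neighbours: CNT markers summed to 17706 to 24028 CPM in DCT, and IMCD markers to 6772 to 10028 CPM in outer CD-PCs. The 9 markers of the proximal tubule (PT) summed to 129 to 1387 CPM in the 6 classes. PT, where ENaC would not be looked for, is given below as a reference level. That its UMIs of the subunits come from free RNA was not tested. Its *Scnn1a* level, at 17.4, 23.1, 14.7 and 17.8 CPM, was highest in control 2. *Scnn1b*, at 0.996, 1.64, 2.66 and 1.28 CPM, was highest in knockout 1. *Scnn1g*, at 1.46, 1.23, 1.94 and 0.682 CPM, was highest in knockout 1 and control 1, the libraries with more free RNA.

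Promoter sequence is shown for 3 of the genes, from RefSeq (mouse build GRCm38.p6), as the bases directly before a transcript start. *Scnn1b* and *Scnn1g* are neighbours on chromosome 7, with 96.6 kb between the genes. Of any pair of the 7 genes, they had the most similar pattern of levels over the cell classes. *Sgk1* is the member whose induction by the receptor is best known. Capitals mark the hormone receptor element, written AGAACA, any 3 bases and TGTTCT, which was searched on both strands together with the AP-2 motif GCCNNNGGC.
Scnn1b, chr7:121864788-121865037, plus strand: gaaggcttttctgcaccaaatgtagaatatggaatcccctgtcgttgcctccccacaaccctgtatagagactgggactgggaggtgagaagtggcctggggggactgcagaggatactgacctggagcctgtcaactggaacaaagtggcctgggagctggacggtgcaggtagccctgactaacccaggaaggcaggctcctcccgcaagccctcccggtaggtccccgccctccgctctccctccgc
Scnn1g, chr7:121734229-121734419, plus strand: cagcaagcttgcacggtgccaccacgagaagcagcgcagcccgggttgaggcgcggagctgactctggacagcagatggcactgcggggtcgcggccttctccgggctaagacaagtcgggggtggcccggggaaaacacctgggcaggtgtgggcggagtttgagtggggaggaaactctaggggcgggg
Sgk1, start 5 of 6 listed, chr10:21993640-21993889, plus strand: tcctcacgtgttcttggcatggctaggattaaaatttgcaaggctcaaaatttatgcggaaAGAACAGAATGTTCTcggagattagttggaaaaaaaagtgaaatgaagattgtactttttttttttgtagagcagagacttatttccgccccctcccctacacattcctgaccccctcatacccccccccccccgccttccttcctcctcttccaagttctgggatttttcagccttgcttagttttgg

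The hormone receptor element was found in the *Sgk1* sequence only, as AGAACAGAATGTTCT, 189 bases before the start. Of 32851 promoters of 250 bases in the same table, 3 held it (0.00913%). The AP-2 motif was in 13.7% of all promoters. It was absent from the 250 bases before the starts of *Scnn1b*, *Scnn1g* and *Nr3c2* and was found at 1 of the 6 starts of *Sgk1*, start 6, 198 bases before the start. A match of letters describes the sequence and is not evidence of binding.

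The 3 channel subunits rose along the tubule by different steps. *Scnn1a* was present from TAL onwards, while *Scnn1b* and *Scnn1g* were near the PT level in TAL, were higher in late than in early DCT and were highest in CNT and outer CD-PCs. In IMCD none of the 3 was above 13.5 CPM in any mouse. Levels are compared for 1 gene between classes, never between genes, since counts at the 3′ end of different genes are not on a common scale.

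*Scnn1a* in TAL was at 147, 118, 171 and 196 CPM, where the PT level was 14.7 to 23.1 CPM. In DCT it was at 306, 252, 265 and 382 CPM. All mice were above their TAL level there, and the ranges of both classes did not overlap. In CNT *Scnn1a* was at 390, 387, 391 and 362 CPM, in outer CD-PCs at 468, 397, 473 and 396 CPM and in ICs at 306, 280, 323 and 392 CPM. From outer CD-PCs down to TAL the order was outer CD-PC, CNT, IC, DCT and TAL. CNT overlapped IC and IC overlapped DCT, whereas outer CD-PCs lay narrowly above CNT and TAL lay below DCT. In IMCD, *Scnn1a* was at 6.27, 3.82, 13.5 and 2.19 CPM, from 18 UMIs in all, which is below the PT level in every mouse.

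*Scnn1b* had the sharper rise. It was at 2.57, 0.660, 3.21 and 2.08 CPM in TAL, close to 0.996 to 2.66 CPM in PT. Early DCT nuclei were at 53.3, 47.4, 43.9 and 55.2 CPM and late DCT nuclei, which carry CNT markers such as *Slc8a1* beside *Slc12a3*, at 199, 226, 231 and 132 CPM. Every mouse was higher in late than in early DCT. In CNT, *Scnn1b* reached 808, 799, 815 and 736 CPM. Outer CD-PCs, at 644, 522, 737 and 805 CPM, overlapped this range. ICs were at 106, 128, 105 and 103 CPM, above the range of DCT as a whole, and the IC subtypes differed: type A ICs were at 188, 177, 197 and 153 CPM and type B ICs at 48.1, 15.6, 57.0 and 37.8 CPM, without overlap. *Scnn1a* did not separate these subtypes, with 231 to 379 CPM in type A and 336 to 410 CPM in type B ICs. In IMCD, *Scnn1b* was at 2.19 to 10.5 CPM.

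*Scnn1g* also rose up to CNT, but unlike *Scnn1b* its range in early DCT overlapped that in TAL. *Scnn1g* was at 0.660 to 4.12 CPM in TAL, 2.30 to 9.47 CPM in early DCT and 107 to 160 CPM in late DCT. In CNT it was at 728, 1066, 699 and 823 CPM and in outer CD-PCs at 468, 446, 507 and 514 CPM. Here the ranges did not overlap, with CNT higher. In IMCD it was at 3.14 to 5.78 CPM. ICs, at 9.41, 4.74, 54.9 and 13.6 CPM, spanned the levels of IMCD and DCT, and knockout 1 was the highest. CNT and outer CD-PCs together made up 3.87% of all nuclei (1059) but held 72.7% of the UMIs of *Scnn1b* and 79.4% of those of *Scnn1g*. For *Scnn1a* this share was 22.3%, and TAL held 30.7% of its UMIs.

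**Figure D1:**
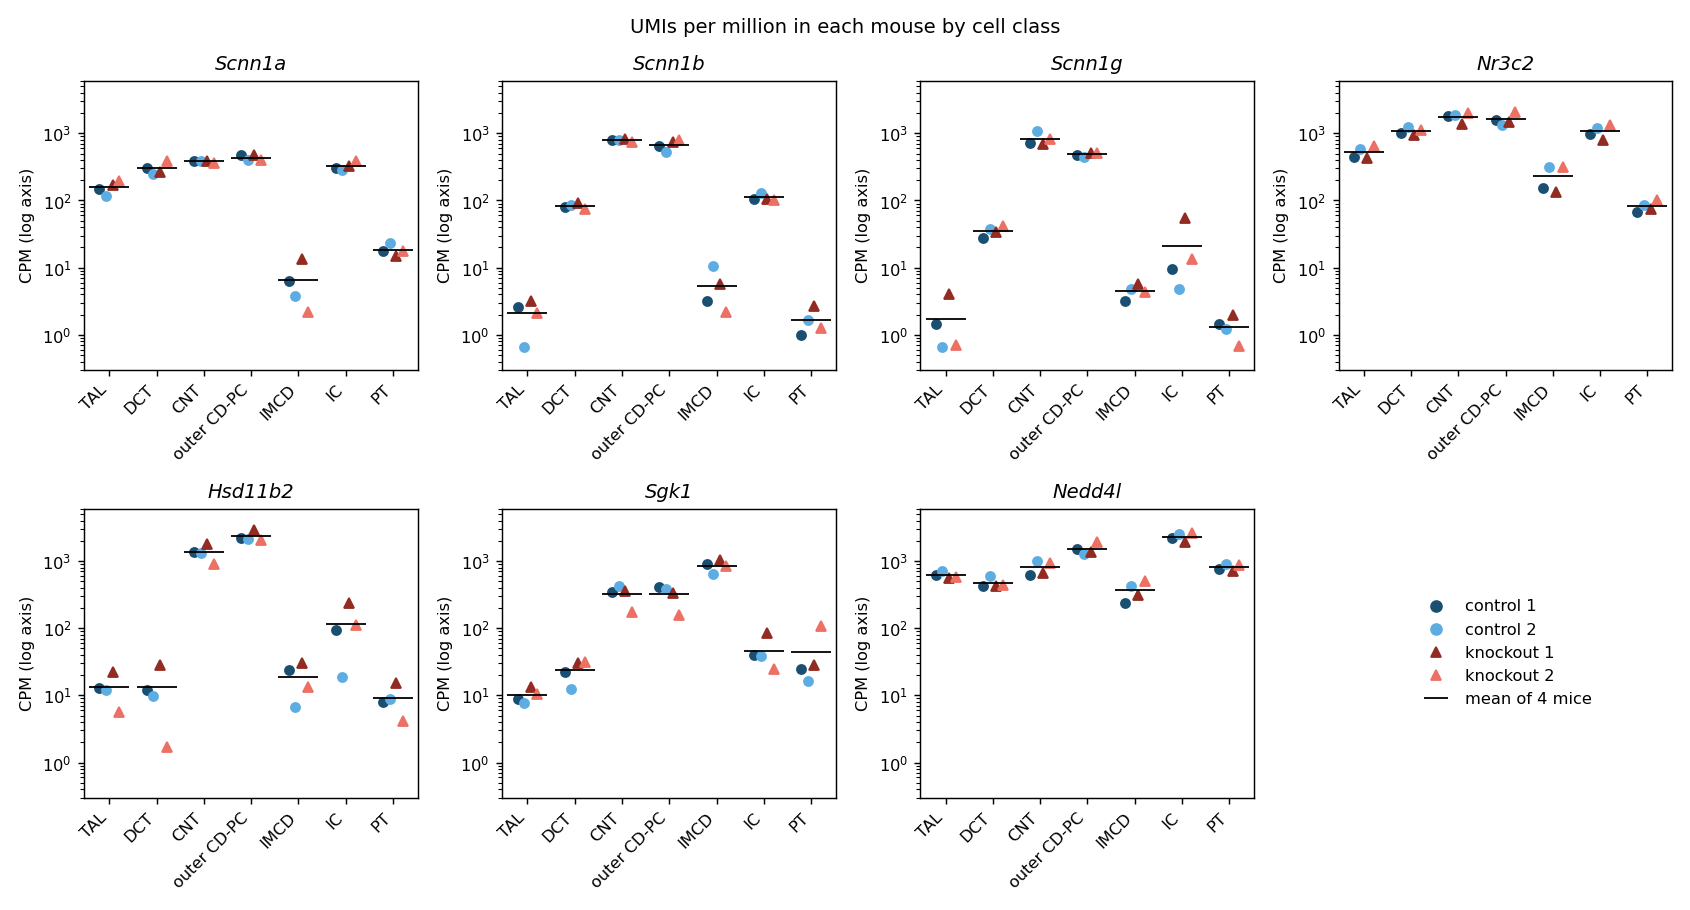
Level of each gene in CPM (log axis) in TAL, DCT, CNT, outer CD-PC, IMCD, IC and PT, with 1 point per mouse and a bar at the mean of the 4 mice. Scnn1b and Scnn1g are at 736 to 815 and 699 to 1066 CPM in CNT and at most 3.21 and 4.12 CPM in TAL, Scnn1a is at 118 to 196 CPM already in TAL, and Sgk1 is highest in IMCD at 644 to 1024 CPM.

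*Nr3c2*, the mineralocorticoid receptor, was less confined to CNT and outer CD-PCs than *Scnn1b* or *Hsd11b2*. CNT was at 1784, 1844, 1367 and 1986 CPM and outer CD-PCs were at 1561, 1320, 1487 and 2059 CPM, which overlapped. DCT was at 1001, 1253, 934 and 1111 CPM, below the range of outer CD-PCs. ICs (967, 1185, 805 and 1323 CPM) overlapped DCT. In TAL it was at 428 to 639 CPM and in IMCD at 133 to 314 CPM, the lowest of the 6 classes and still above 68.1 to 101 CPM in PT. In IMCD the 2 mice with more free RNA, control 1 and knockout 1, were the lower ones, at 154 and 133 CPM against 314 and 313 CPM. Only 21.6% of the UMIs of *Nr3c2* were in CNT and outer CD-PCs.

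*Hsd11b2*, the enzyme that shields the receptor from glucocorticoids, began abruptly in CNT. Early DCT held 6, 4, 18 and 0 UMIs of it and late DCT 1, 0, 3 and 1 UMIs, at 0 to 32.9 CPM, which overlaps 4.18 to 15.3 CPM in PT. CNT nuclei with little *Aqp2* were at 503, 806, 837 and 452 CPM, and CNT nuclei with more *Aqp2* at 2365, 1834, 2558 and 1280 CPM. Each mouse was higher in the *Aqp2*-high nuclei, and the ranges of the finer classes did not overlap. Outer CD-PCs had 2 levels as well: those with more *Aqp3* were at 2735, 2959, 3321 and 3142 CPM and those with less *Aqp3* at 765, 645, 1282 and 863 CPM. The latter nuclei were shallower by the number of UMIs, at 0.827 of the median of their libraries against 1.22. *Nr3c2* went the other way, with 1042 to 1730 CPM in *Aqp3*-high and 1825 to 2439 CPM in *Aqp3*-low outer CD-PCs. In IMCD, *Hsd11b2* was at 6.69 to 30.8 CPM and in TAL at 5.56 to 22.4 CPM. The 3 classes with the lowest levels, IMCD, TAL and DCT, overlapped one another and PT, and knockout 1 was the highest mouse in each of these 4.

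*Sgk1*, the aldosterone-induced kinase, was the only one of the 7 genes with its highest level in IMCD. IMCD was at 912, 644, 1024 and 838 CPM, above every other class of the 6 in each mouse. CNT was at 341, 425, 358 and 176 CPM and outer CD-PCs were at 415, 382, 334 and 157 CPM, which overlapped, with knockout 2 lowest in both. Within CNT the *Aqp2*-high nuclei were at 633, 667, 558 and 261 CPM and the *Aqp2*-low nuclei at 84.8, 173, 115 and 79.7 CPM, without overlap. DCT was at 12.3 to 31.1 CPM and TAL at 7.58 to 13.3 CPM. With free RNA subtracted, the means were 11.7 CPM in early DCT, 16.4 CPM in late DCT and 0 CPM in TAL. PT was not taken as a reference level for this gene. It was at 24.9, 16.3 and 28.4 CPM in control 1, control 2 and knockout 1 and at 109 CPM in knockout 2. Of all UMIs of *Sgk1*, 28.7% were in IMCD, 24.7% in PT and 11.8% in CNT and outer CD-PCs. DMEP (580 to 791 CPM) and endothelial nuclei (347 to 452 CPM) were high as well.

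*Nedd4l*, the ubiquitin ligase that removes ENaC from the membrane, was found in all 6 classes. It was highest in ICs, at 2178, 2494, 1916 and 2570 CPM, followed by outer CD-PCs, at 1520, 1262, 1349 and 1941 CPM, and their ranges overlapped narrowly. CNT was at 618, 1011, 664 and 947 CPM, TAL at 560 to 701 CPM, DCT at 427 to 607 CPM and IMCD at 235 to 501 CPM, and each of these overlapped its neighbour in that order. PT was at 719 to 888 CPM and held 64.0% of all UMIs of *Nedd4l*, and PT was not taken as a reference level for this gene either. The *Aqp3*-low outer CD-PCs had 1592 to 2664 CPM and the *Aqp3*-high ones 1080 to 1315 CPM, in the same direction as *Nr3c2*.

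Whether each gene changed from 1 segment to the next was tested on UMIs summed per mouse and class, over all 4 mice, with edgeR's quasi-likelihood test adjusted over all 16686 genes. A gene was called at an adjusted p under 0.05. From TAL to DCT, 5 of the 7 genes were called, all higher in DCT, where 16.2% of all genes were called (7.20% higher and 9.04% lower). *Scnn1b* rose by a log2 fold change of 5.26 ± 0.265 (SE, n = 4 mice), *Scnn1g* by 4.35 ± 0.375, *Sgk1* by 1.32 ± 0.307, *Nr3c2* by 1.08 ± 0.151 and *Scnn1a* by 0.95 ± 0.141. *Nedd4l* (−0.37, 95% interval −0.67 to −0.07, adjusted p = 0.0916 by edgeR) and *Hsd11b2* (0.05, −0.70 to 0.81) were not called. The median over the 7 genes was 1.08 and over all genes −0.11. With the control mice alone, *Sgk1* was no longer called (1.16, adjusted p = 0.0909 by edgeR). Its mean level in TAL was 0 CPM with free RNA subtracted.

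From DCT to CNT, 6 genes were called, all higher in CNT, where 8.86% of all genes were called (4.17% higher and 4.69% lower). *Hsd11b2* rose by a log2 fold change of 6.65 ± 0.281, followed by *Scnn1g* with 4.54 ± 0.211, *Sgk1* with 3.65 ± 0.239 and *Scnn1b* with 3.23 ± 0.167. *Nedd4l* (0.73 ± 0.158) and *Nr3c2* (0.68 ± 0.152) rose by less. *Scnn1a* had a log2 fold change of 0.33 (95% interval 0.04 to 0.63, adjusted p = 0.190 by edgeR) and was not called. The median was 3.23 over the 7 genes and −0.02 over all genes. In the control mice alone *Nr3c2* and *Nedd4l* were no longer called (0.66 and 0.60, adjusted p = 0.0829 and 0.179 by edgeR).

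Between CNT and outer CD-PCs, 3 genes were called, where 15.7% of all genes were called (8.69% higher and 6.96% lower). *Scnn1g* fell by 0.91 ± 0.162 on the log2 scale, and *Hsd11b2* (0.69 ± 0.177) and *Nedd4l* (0.78 ± 0.155) rose. *Scnn1b* was at −0.38 (95% interval −0.66 to −0.10, adjusted p = 0.0568 by edgeR), and was called, at −0.50, where the 7 genes were allowed in clustering (adjusted p = 0.0101 by edgeR). For *Nr3c2* (−0.26, −0.56 to 0.04), *Scnn1a* (0.06, −0.24 to 0.36) and *Sgk1* (−0.10, −0.46 to 0.25) the intervals held 0. The medians were −0.10 over the 7 genes and 0.02 over all genes. With DESeq2, 1 of the 7 genes was called, *Nedd4l*. *Hsd11b2* was also not called with free RNA subtracted or in control mice alone (adjusted p = 0.0747 and 0.0728 by edgeR).

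The change into IMCD was large for all 7 genes, and all were called, where 29.0% of all genes were called (14.0% higher and 14.9% lower). Against outer CD-PCs, the log2 fold changes were −7.03 ± 0.261 for *Hsd11b2*, −6.71 ± 0.239 for *Scnn1b*, −6.68 ± 0.289 for *Scnn1g* and −6.07 ± 0.243 for *Scnn1a*. Those of *Nr3c2* and *Nedd4l* were −2.82 ± 0.167 and −2.04 ± 0.159. *Sgk1* alone rose, with a log2 fold change of 1.42 ± 0.166. The medians were −6.07 over the 7 genes and 0.01 over all genes. *Aqp2*, the vasopressin-regulated water channel that both classes share, was at 10120 and 4364 CPM in the IMCD clusters and at 8123 and 2230 CPM in those of outer CD-PCs.

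ICs, the acid-base transporting cells that lie between principal cells, also differed from outer CD-PCs in all 7 genes, where 20.5% of all genes were called (9.58% higher and 10.9% lower). The log2 fold changes were −4.51 ± 0.248 for *Scnn1g*, −4.48 ± 0.219 for *Hsd11b2*, −2.82 ± 0.225 for *Sgk1* and −2.61 ± 0.167 for *Scnn1b*. *Nr3c2* fell by 0.62 ± 0.153 and *Scnn1a* fell by 0.46 ± 0.149. *Nedd4l* rose by 0.58 ± 0.150. The medians were −2.61 over the 7 genes and −0.01 over all genes. The call of *Scnn1a* was lost without control 1 (−0.42, adjusted p = 0.0895 by edgeR), without control 2 (−0.41, adjusted p = 0.0854 by edgeR), with free RNA subtracted and in control mice alone, where that of *Nr3c2* was lost too. The outer CD-PC sums enter 3 of these comparisons and the CNT and DCT sums 2 each, so the comparisons are not independent of each other.

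**Figure D2:**
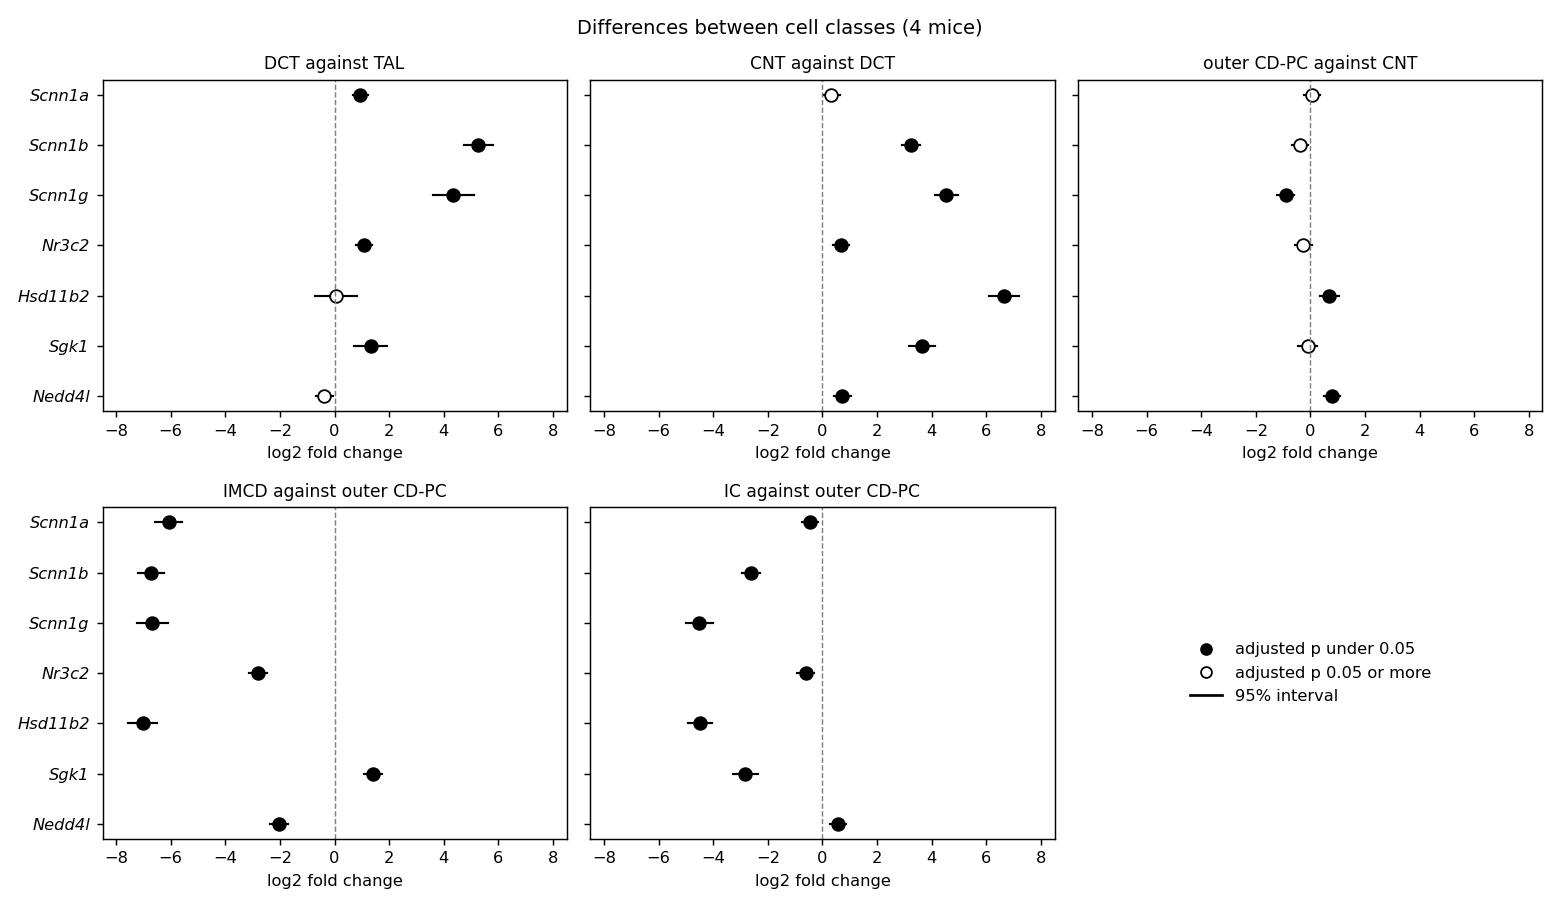
Log2 fold change of each gene between classes of the tubule with its 95% interval, fitted over 4 mice by edgeR. Filled points passed an adjusted p of 0.05; Hsd11b2 steps up by 6.65 from DCT to CNT and to −7.03 from outer CD-PC to IMCD, where Sgk1 rises by 1.42.

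Which nuclei carried the genes together was described after each nucleus had been thinned to 1000 UMIs, since depth differed between classes. A UMI of any subunit was found in 85.6% of *Aqp2*-high CNT nuclei, 73.7% of *Aqp2*-low CNT nuclei, 68.3% of *Aqp3*-high and 68.6% of *Aqp3*-low outer CD-PCs (means of 4 mice). In TAL the share was 14.4%, in early DCT 29.1%, in late DCT 42.8%, in type A ICs 36.7% and in type B ICs 30.3%. In PT it was 1.89%, and the IMCD clusters, at 2.54% and 0.606%, lay on either side of that share. Median depths before thinning were 1750 to 3362 UMIs per nucleus in the outer CD-PC clusters and 3024 to 3693 in PT, and 6 outer CD-PCs, 8 CNT nuclei and 234 PT nuclei with fewer than 1000 UMIs were left out.

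UMIs of all 3 subunits in 1 nucleus were found in 6.03%, 9.46%, 8.95% and 8.47% of CNT nuclei, with a mean of 8.23%. Without thinning this mean was 39.0%. In outer CD-PCs the shares were 5.38%, 5.08%, 6.77% and 12.9%, with a mean of 7.54% thinned and 36.8% not thinned. The genotypes overlapped in CNT. In outer CD-PCs as a whole both knockout mice lay above both control mice, with knockout 2 the highest, and this difference was not tested. It did not hold in *Aqp3*-high outer CD-PCs, at 8.47%, 5.47%, 7.61% and 7.89%. The *Aqp3*-low outer CD-PCs were at 0%, 4.63%, 4.88% and 17.0%. In TAL, 0 of 5104 nuclei had all 3, which allows a share of up to 0.0588% at this depth, and without thinning it was 0 of 5194. In PT it was 0 of 13578, which allows up to 0.0221% at this depth, and 1 of 13812 without thinning. In type A ICs it was 0 of 371, which allows up to 0.809% at this depth, and 6 of 383 without thinning. These limits cover counting error only.

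The receptor and the enzyme were found in the same nucleus mainly in CNT and outer CD-PCs. *Nr3c2* and *Hsd11b2* together had UMIs in 62.7%, 49.2%, 76.1% and 60.5% of *Aqp3*-high outer CD-PCs and in 48.1%, 50.0%, 56.3% and 45.9% of *Aqp2*-high CNT nuclei. In *Aqp2*-low CNT nuclei the mean was 28.0% and in *Aqp3*-low outer CD-PCs 47.5%. Early DCT had *Nr3c2* in a mean of 59.5% of nuclei and both in 0.609%, against 79.4% and 2.24% without thinning, and the PT share of both was 0.112%. Type A ICs had both in 1.98%, type B ICs in 2.80% and TAL in 0.402%. *Sgk1* was found in 52.0% and 55.0% of nuclei of the IMCD clusters, where 0 of 339 and 0 of 325 nuclei held both *Nr3c2* and *Hsd11b2*, which allows up to 0.885% and 0.923% at this depth. Without thinning, 13 of 339 and 4 of 327 held both.

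**Figure D3:**
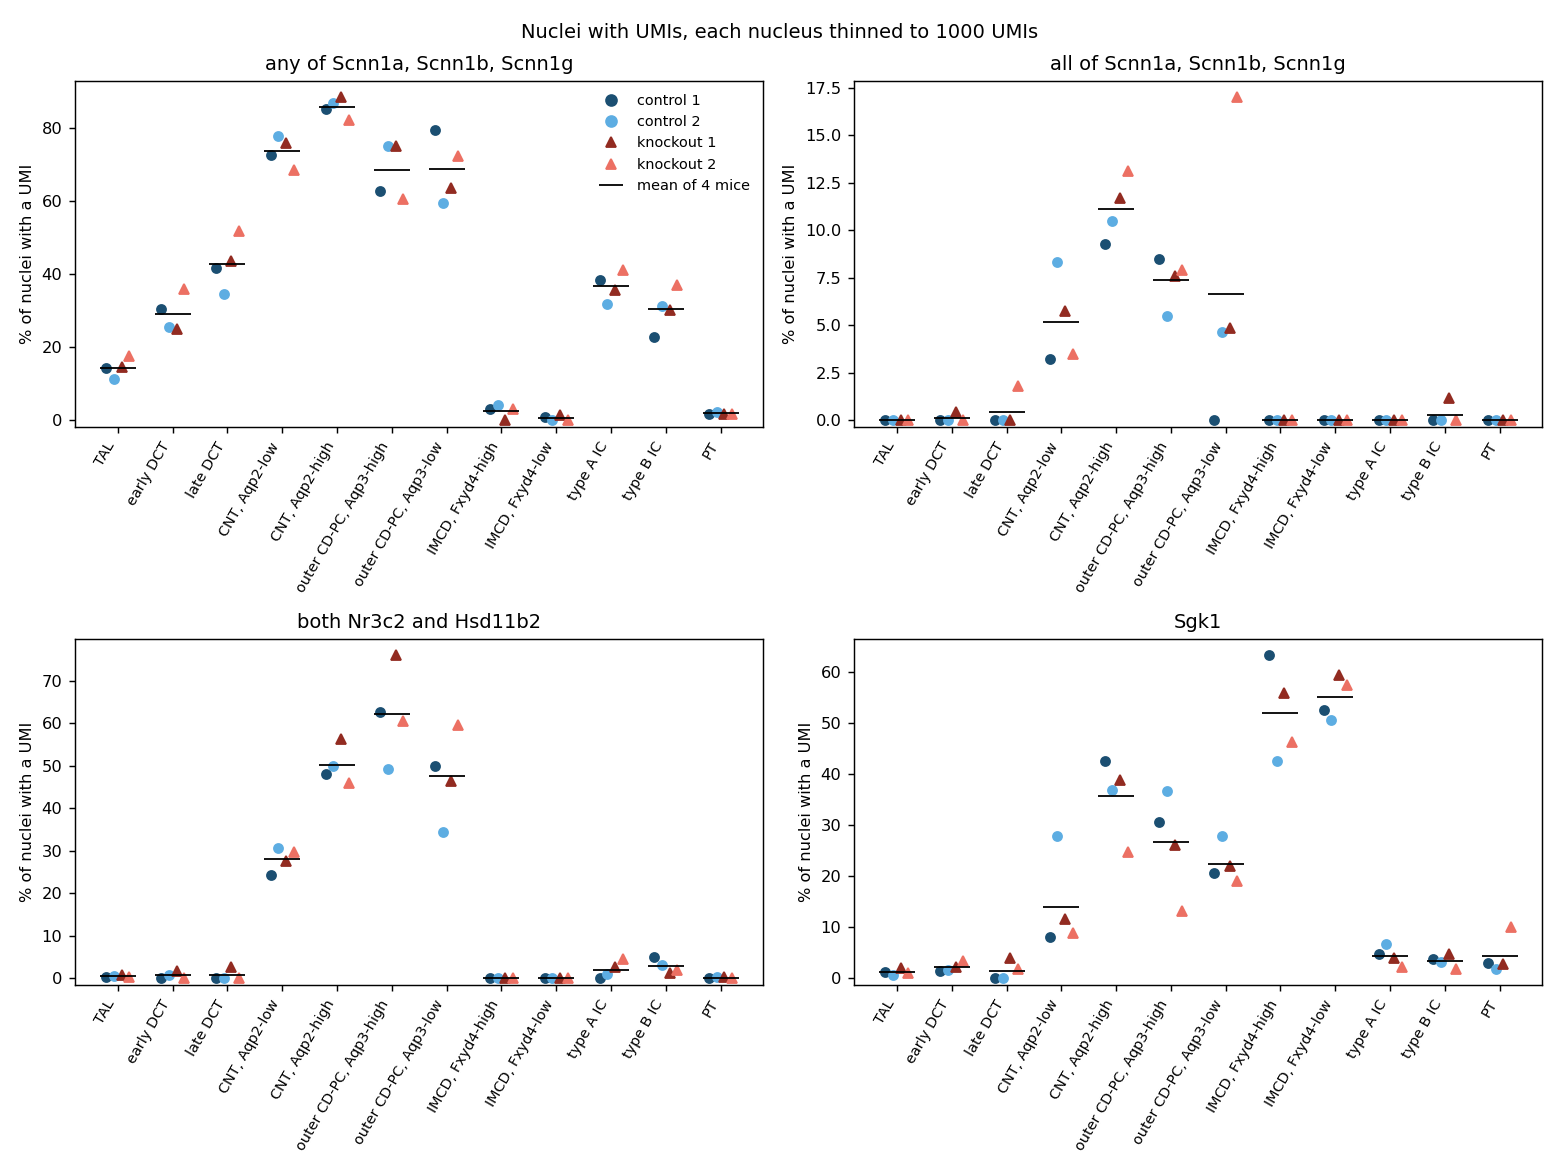
Percent of nuclei with a UMI of any subunit, of all 3 subunits, of both Nr3c2 and Hsd11b2, and of Sgk1, by finer class after thinning to 1000 UMIs, with 1 point per mouse and a bar at the mean. Any subunit is found in 85.6% of Aqp2-high CNT nuclei and 1.89% of PT nuclei, and Sgk1 is found in 52.0% and 55.0% of the IMCD nuclei.

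The likeness of the genes was described by Pearson's r of log2(mean CPM + 10) over the 18 named classes, among 12751 genes. The classes share their libraries and differ in depth, so r is a description. *Scnn1b* and *Scnn1g* were each other's closest gene, with r = 0.948. Next to *Scnn1b* stood *Atp2b2* (0.937), a plasma membrane calcium pump, and *Cog7* (0.933), and next to *Scnn1g* stood *Cog7* (0.943) and *A930017K11Rik* (0.932). *Hsd11b2* was most like *Kcne1* (0.953), a potassium channel subunit, *A930017K11Rik* (0.950) and *Gm45169* (0.899). *Scnn1a* was closest to *Akap17b* (0.934), *Dsg2* (0.928), a desmosomal cadherin, and *AC157554.2* (0.925), with *Nr3c2* at 0.893 and *Scnn1g* at 0.738. *Nr3c2* was closest to *4933417O13Rik* (0.936), *Wsb1* (0.936) and *Akap17b* (0.931). *Nedd4l* was closest to *Recql5* (0.942), *Rab17* (0.910) and *Arhgef38* (0.881). *Sgk1* stood apart from the other 6 genes, with r of −0.187 to 0.358, and was closest to *Fam174b* (0.934), *Camkk2* (0.881) and *Ddx58* (0.877).

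The effect of *Tfap2a* deletion on the 7 genes was tested in each class on 2 knockout against 2 control mice. None of the 7 genes passed the test in any of the 6 classes. With edgeR, 0 of 7 were called in TAL (0.0135% of all genes called), DCT (0.00885%), CNT (0%), outer CD-PC (0.00910%), IMCD (0.00831%) and IC (0%), and with DESeq2 the count was 0 of 7 in each class as well. At an unadjusted p under 0.05 by edgeR were 0 of the 7 genes in every class except IC, with 2, and 443, 189, 209, 357, 217 and 198 of all genes in this order of classes. The p-values set the difference between genotypes against the spread between mice of the same genotype, of which there were 2 each. On simulated counts of these sums, with genes of at least 200 UMIs, the test recovered 71% to 96% of 4-fold changes and 3% to 15% of 2-fold changes, so a 2-fold change of a member would mostly have gone undetected. Members with fewer UMIs are not covered by these shares, such as *Scnn1g* with 17 in TAL, 80 in DCT, 13 in IMCD and 36 in IC. The simulated mice varied independently, whereas deviations of same-numbered mice correlated at 0.48 to 0.69.

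In outer CD-PCs, a class within the reach of the Cre, *Scnn1b* was at 644 and 522 CPM in control and 737 and 805 CPM in knockout mice. *Scnn1g* was at 468 and 446 CPM in control and 507 and 514 CPM in knockout mice, and *Sgk1* at 415 and 382 CPM in control and 334 and 157 CPM in knockout mice. For these 3 genes the genotypes did not overlap, as was so for 28.9% of all genes in this class. The log2 fold changes of knockout against control were 0.39 (95% interval −0.30 to 1.09) for *Scnn1b*, 0.15 (−0.52 to 0.81) for *Scnn1g* and −0.69 (−1.45 to 0.07, unadjusted p = 0.0737 by edgeR) for *Sgk1*. *Scnn1a* was at 0.00 (−0.65 to 0.65), *Nr3c2* at 0.29 (−0.50 to 1.07), *Hsd11b2* at 0.18 (−0.63 to 0.99) and *Nedd4l* at 0.23 (−0.56 to 1.01). The median of the 7 was 0.18 against −0.00 over all genes. The mice differed in the make-up of this class, with 36 of 96, 108 of 236, 44 of 136 and 47 of 85 nuclei *Aqp3*-low. The part of this in the changes was not tested.

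In CNT, none of the 7 genes had genotypes that did not overlap, where 27.6% of all genes did. The log2 fold changes lay between −0.50 for *Sgk1* (95% interval −1.29 to 0.29) and −0.00 for *Nedd4l* (−0.80 to 0.79), and those of *Scnn1a* and *Scnn1b* were both −0.04. Whether a change differed between outer CD-PCs and CNT was tested as an interaction: 0 of 7 genes were called by edgeR (0.0409% of all genes), 0 by DESeq2, and 0 at an unadjusted p under 0.05 where 478 of all genes were. The differences ranged from −0.20 (−0.85 to 0.45) for *Sgk1* to 0.44 (−0.16 to 1.04) for *Scnn1b*. In simulated counts this test recovered 91% of 4-fold and 27% of 2-fold differences.

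In IMCD, another collecting duct class beside outer CD-PCs and ICs, the well-measured genes were *Sgk1* (0.26, 95% interval −0.50 to 1.02), *Nr3c2* (−0.09, −1.06 to 0.88) and *Nedd4l* (0.30, −0.53 to 1.12). Of the 7 genes, 0 had genotypes that did not overlap, against 26.6% of all genes. The subunits had 11 or fewer UMIs per mouse there. In TAL 3 genes had genotypes that did not overlap, where 29.6% of all genes did: *Scnn1a* (0.46, −0.06 to 0.97, unadjusted p = 0.0732 by edgeR) and *Sgk1* (0.51, −0.26 to 1.29) were higher and *Nedd4l* (−0.21, −0.74 to 0.33) was lower in both knockout mice. In DCT this was 1 gene, *Sgk1*, with 13 and 5 UMIs in control and 22 and 18 UMIs in knockout mice (0.73, −0.28 to 1.73), where 26.7% of all genes did not overlap.

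**Figure D4:**
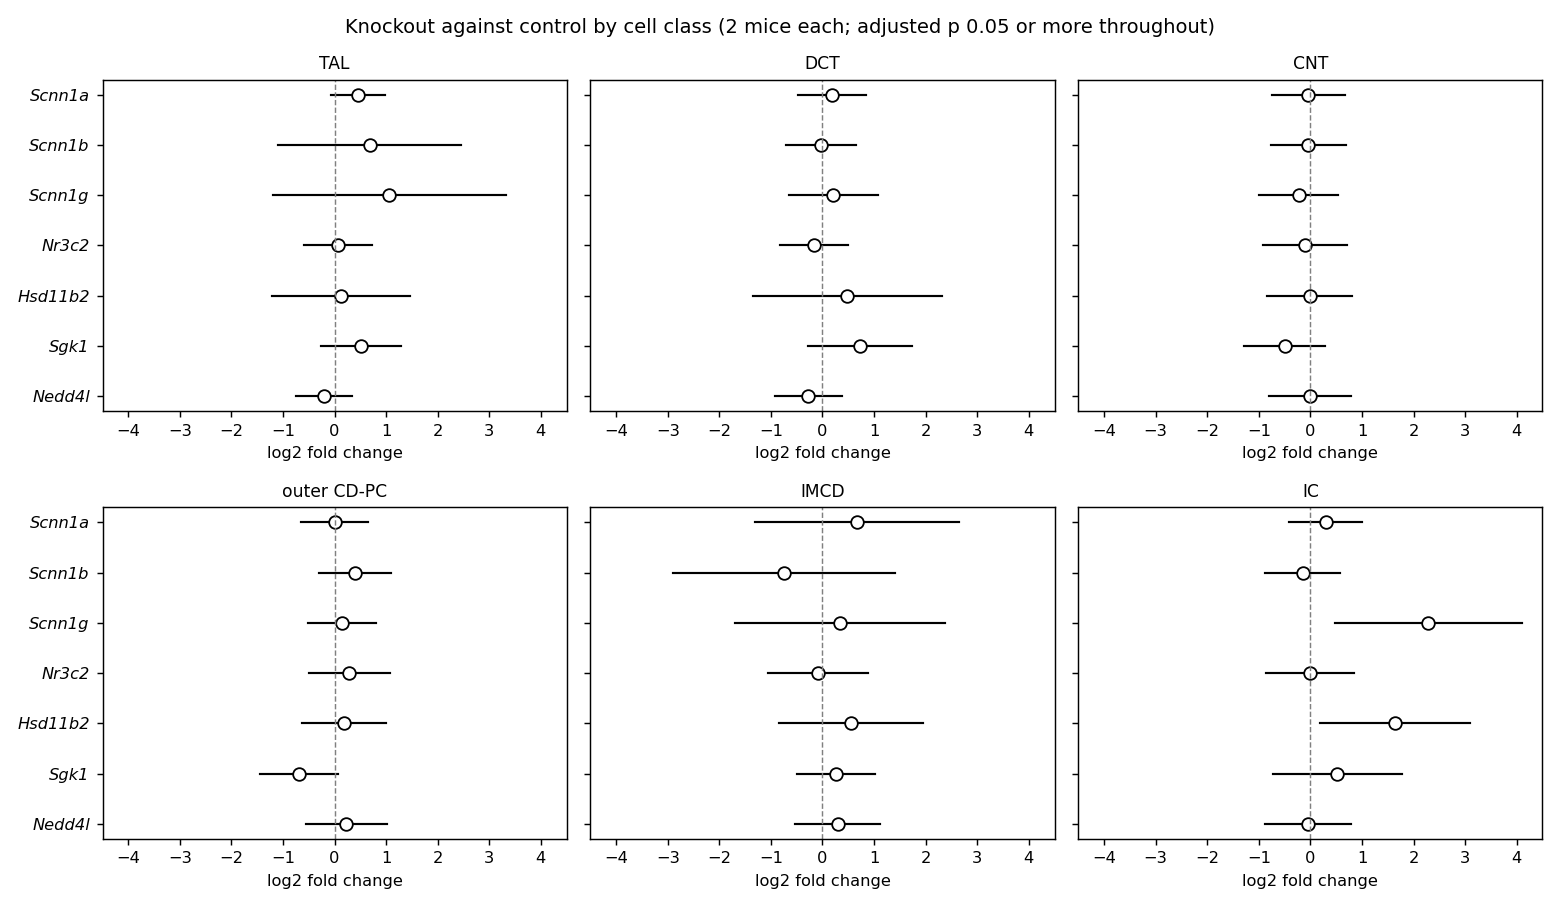
Log2 fold change of knockout against control mice (2 each) in each class with its 95% interval by edgeR. All points are open since no gene passed an adjusted p of 0.05; the widest intervals are those of genes with few UMIs, such as the subunits in IMCD, and Scnn1g and Hsd11b2 in IC lie at 2.29 and 1.64.

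In ICs, 4 genes had genotypes that did not overlap, where 26.3% of all genes did. *Hsd11b2* was at 94.1, 19.0, 237 and 112 CPM, from 40, 8, 108 and 41 UMIs, and *Scnn1g* was at 9.41, 4.74, 54.9 and 13.6 CPM, from 4, 2, 25 and 5 UMIs. Both were highest in knockout 1. Their log2 fold changes were 1.64 (95% interval 0.19 to 3.09, unadjusted p = 0.0305 by edgeR) and 2.29 (0.48 to 4.10, unadjusted p = 0.0190 by edgeR). Neither passed the adjustment (adjusted p = 0.999 for both by edgeR). Without knockout 2, both were called, *Hsd11b2* at 2.05 (adjusted p = 0.00378 by edgeR) and *Scnn1g* at 2.89 (adjusted p = 0.0227 by edgeR). Without knockout 1 their log2 fold changes were 0.97 and 0.91. The other 2 were *Scnn1a* (0.30, −0.42 to 1.01), higher, and *Scnn1b* (−0.15, −0.88 to 0.58), lower in both knockout mice.

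Markers of CNT varied between the mice in ICs as well. The 6 CNT markers, all of them detected, summed to 1788, 258, 4274 and 1195 CPM, and *Slc8a1* alone was at 1087, 83.0, 2028 and 716 CPM, highest in knockout 1 and lowest in control 2 as *Hsd11b2* and *Scnn1g* were. *Aqp2* was at 80.0, 166, 222 and 147 CPM. Over all ICs, *Slc8a1* was higher in control 1 than in knockout 2, whereas *Hsd11b2* and *Scnn1g* were lower. In type B ICs *Slc8a1* was at 1658, 23.5, 2893 and 120 CPM, so that control 1 and knockout 1 stood above the others. *Hsd11b2* there had the same order of mice, at 144, 39.1, 265 and 81.9 CPM, and the genotypes overlapped. Type A ICs had *Hsd11b2* at 22.8, 10.2, 184 and 134 CPM, from 4, 3, 29 and 28 UMIs, without overlap of the genotypes. *Slc8a1* in type A ICs was at 274, 109, 387 and 1170 CPM, highest in knockout 2. Called doublets in IC held 3 of 40, 0 of 8, 50 of 108 and 18 of 41 UMIs of *Hsd11b2*. For *Scnn1g* they held 0 of 4, 0 of 2, 16 of 25 and 3 of 5 UMIs. Without called doublets, *Hsd11b2* had 37, 8, 58 and 23 UMIs and a log2 fold change of 0.85, and *Scnn1g* had 4, 2, 9 and 2 UMIs and 0.87. The most UMIs of *Hsd11b2* in 1 IC nucleus were 14, 1, 17 and 9. The part of CNT RNA in the difference of *Hsd11b2* and *Scnn1g* was not tested.

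**Figure D5:**
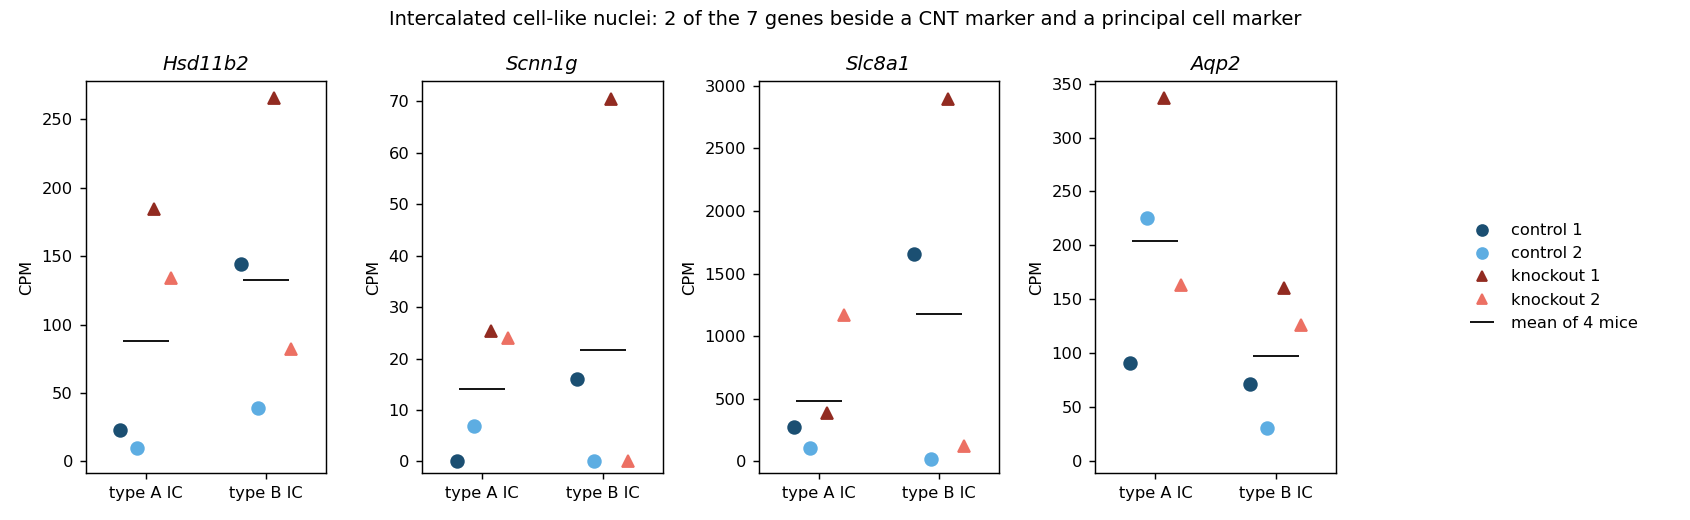
Level in CPM of Hsd11b2, Scnn1g, the CNT marker Slc8a1 and the principal cell marker Aqp2 in type A and type B intercalated cell-like nuclei, with 1 point per mouse and a bar at the mean. Knockout 1 is the highest mouse for Hsd11b2 and Scnn1g in both types and for Slc8a1 in type B ICs, where it is at 2893 CPM.

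The wider pathway was described by 43 genes listed around ENaC and aldosterone: channel proteases, steroid receptors with their enzymes and chaperones, genes that respond to aldosterone or corticosteroids, ubiquitin ligases and partners, kinases around SGK1, repressors of *Scnn1a* and transport partners. From TAL to DCT 7 of the 43 were higher and 8 lower, from DCT to CNT 5 and 7, from CNT to outer CD-PC 7 and 12, from outer CD-PC to IMCD 8 and 15, and from outer CD-PC to IC 9 and 11. Of all genes, 16.2%, 8.86%, 15.7%, 29.0% and 20.5% were called in these comparisons. Their median log2 fold changes in these comparisons were 0.05, −0.15, −0.13, −0.23 and 0.05, beside −0.11, −0.02, 0.02, 0.01 and −0.01 over all genes. The genes of this paragraph were chosen for naming after their values were seen. *Wnk1*, a kinase that regulates distal salt transport, rose by 3.79 ± 0.184 from TAL to DCT and fell by 4.72 ± 0.204 from CNT to outer CD-PC, where *Wnk4* fell by 2.88 ± 0.179. *Fxyd4*, a regulator of ion transport that is also a marker used to name outer CD-PCs, rose by 4.84 ± 0.226 there. *Kcnj1*, the potassium channel ROMK, fell by 5.57 ± 0.289 from outer CD-PC to IMCD, together with ENaC. *Nr3c1*, the glucocorticoid receptor, was higher by 1.33 ± 0.231 in IMCD and by 1.71 ± 0.235 in IC than in outer CD-PC, where *Nr3c2* fell, and *Tsc22d3*, a glucocorticoid-induced gene, was higher by 1.89 ± 0.188 in IMCD. *Sgk2* was higher in IC than in outer CD-PC by 3.16 ± 0.418, opposite to *Sgk1*.

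Between genotypes, 0 of the 43 genes were called by edgeR in each of the 6 classes, with 43, 41, 40, 40, 39 and 39 tested in TAL, DCT, CNT, outer CD-PC, IMCD and IC, and 5, 2, 0, 2, 3 and 1 at an unadjusted p under 0.05, where 443 of 14766, 189 of 11305, 209 of 10234, 357 of 10992, 217 of 12040 and 198 of 11053 of all genes were. The genes named next were chosen after their values were seen. *Zbtb16*, a corticosteroid-induced transcription factor, was at 140, 102, 216 and 337 CPM in TAL (1.19 ± 0.289), 26.1, 39.5, 91.4 and 126 CPM in DCT (1.72 ± 0.376) and 29.3, 45.9, 77.0 and 138 CPM in IMCD (1.49 ± 0.378). *Per1*, a clock gene that aldosterone induces, was at 15.4, 7.58, 28.9 and 48.3 CPM in TAL (1.75 ± 0.404), and *Usp2*, a deubiquitinase, at 106, 61.0, 139 and 244 CPM (1.19 ± 0.356). Both knockout mice were above both control mice in each of these, with knockout 2 the highest. Genotypes did not overlap for 29.6% of all genes in TAL, 26.7% in DCT and 26.6% in IMCD. Without knockout 1, knockout 2 is alone in its group, and the log2 fold changes of *Zbtb16* were 1.47 in TAL, 1.98 in DCT and 1.84 in IMCD. Those of *Per1* and *Usp2* in TAL were then 2.06 and 1.53. With no filter beyond 1 UMI, *Per1*, *Usp2* and *Zbtb16* were called in TAL (adjusted p = 4.98e-05, 0.00324 and 0.00382 by edgeR) and *Zbtb16* in DCT (adjusted p = 0.0233 by edgeR). Of all genes, 72 in TAL and 6 in DCT were called with this setting. By DESeq2, with called doublets left out or with free RNA subtracted, 0 of the 43 genes were called in each class. In CNT the log2 fold change of *Zbtb16* was −0.57 (95% interval −1.53 to 0.39) and in outer CD-PCs 0.12 (−0.60 to 0.83), and the genotypes overlapped in both.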

How the data were processed

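Nuclei of 4 medulla-enriched kidney samples were sequenced by droplet single-nucleus RNA-seq. The deposited matrices hold raw UMI counts per gene and barcode, which the authors made with Cell Ranger 3.0.2 on mm10, with all barcodes kept. The study's own analysis of the nuclei used Seurat and compared genotypes over pooled nuclei. The study also compared genotypes by bulk RNA-seq of whole kidneys and, for *Wnt9b* and *Alcam*, by in situ hybridization.

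From each library the 10000 barcodes with the most UMIs were taken, and nuclei with more than 500 and fewer than 4000 genes and under 5% mitochondrial UMIs were kept. Libraries were integrated with Seurat 5.3.0 (R 4.3.3, 30 dimensions, resolution 0.5) without the 7 genes, and distal nephron and collecting duct clusters were clustered again. Names came from marker lists, and the limits for a name were set after the clusters had been seen. A difference from the study's classes may come from these rebuilt names. Doublets were called per library with scrublet in scanpy 1.11.5, at an expected 0.8% per 1000 nuclei (479, 236, 512 and 305 nuclei), and were kept in the main analysis.

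UMI sums of each class in each mouse were tested with edgeR 4.0.16 (quasi-likelihood test, TMM, two-sided, Benjamini-Hochberg adjustment over all genes), for genes that reached 10 UMIs in the sums compared. Between classes all 4 mice entered with the mouse as a term. CPM are UMIs of a gene scaled to a common total per sum. Intervals and limits for a count of 0 (3 counts) cover counting error only where they concern nuclei. The test was checked on simulated counts with 100 genes changed by each fold. Alternatives were DESeq2 1.42.0, other filters, scaling, clusterings and thresholds, a replicate block, each mouse left out, doublets left out and free RNA subtracted. Alternatives restricted to finer classes were added after seeing the data.

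The 7 genes, the marker lists and the pathway list were chosen with earlier results of these data known. Named were the 7 genes, *Tfap2a*, for each of the 7 the 3 genes most like it, and any pathway gene called between genotypes, and other names are given as chosen after their values were seen. Promoters were matched by symbol to a RefSeq table (GRCm38.p6). Entries for *Scnn1b*, *Scnn1g*, *Nr3c2* and *Sgk1* were searched, and *Nedd4l* was left out of this search. The *Scnn1g* sequence is printed up to the start of the gene, 191 bases. The values of 1 gene of the pathway list are not reported here.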

Additional observations from a re-analysis of the deposited data

Results flagged for a closer look

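Each result here moved one way in both knockout mice in one class and the other way in both knockout mice in another class, and in each case the difference between the classes was not tested. *Scnn1b* had a log2 fold change of knockout against control of 0.39 in outer CD-PCs and −0.15 in ICs. *Sgk1* had 0.51 in TAL and −0.69 in outer CD-PCs, and 0.73 in DCT beside the same −0.69. None of these changes passed the test within its class by edgeR. With free RNA subtracted, the mean level of *Sgk1* was 0 CPM in TAL, 11.7 CPM in early DCT and 16.4 CPM in late DCT. Genotypes did not overlap for 29.6% of all genes in TAL, 26.7% in DCT, 28.9% in outer CD-PCs and 26.3% in ICs. Groups of 2 mice are too small for a check of single samples that lie far from their group.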

How the results depend on the processing

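Of 159 recomputed counts of called genes, 156 stayed within 1.5 times the value reported. The exceptions were outer CD-PC against CNT, with 1 gene by DESeq2 against 3, and genotypes in IC, with 1 gene under the replicate block and 0 to 2 when a mouse was left out (2 without knockout 2) against 0. All 3 subunits were found in 39.0% of CNT nuclei without thinning and 1.96% at 500 UMIs. The causes were not tested.

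Of 239 single changes between genotypes, 24 turned in sign. In CNT, *Scnn1a* (−0.04) was 0.03 with the members allowed in clustering, 0.15 in *Aqp2*-high nuclei and −0.08 to 0.00 with a mouse left out. With a mouse left out, *Scnn1g* ranged from −0.45 to 0.06, *Nr3c2* from −0.43 to 0.15, *Hsd11b2* from −0.58 to 0.37 and *Nedd4l* from −0.31 to 0.38. *Hsd11b2* was 0.02 with no filter and 0.01 with free RNA subtracted, and *Nedd4l* 0.02 with no filter and 0.01 with the replicate block. In outer CD-PCs, *Scnn1a* (0.00) was −0.01 with no filter, the replicate block or doublets left out, −0.00 with filterByExpr or resolution 0.8, −0.03 in *Aqp3*-high nuclei and −0.11 to 0.14 with a mouse left out, *Scnn1g* was −0.07 in *Aqp3*-low nuclei, and with a mouse left out *Hsd11b2* ranged from −0.05 to 0.38 and *Nedd4l* from −0.07 to 0.49. Of 385 changes between classes, 6 turned. *Hsd11b2* from TAL to DCT was −0.05 by DESeq2, −0.15 in control mice and −0.48 to 0.16 with a mouse left out, and *Sgk1* from CNT to outer CD-PC was 0.03 without TMM and −0.13 to 0.02 with a mouse left out. A mouse left alone in its group is assumed to vary like the others.

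The replicate numbers were not taken to pair the mice, since there are 2 pairs and nothing in the labels ties them. Deviations of same-numbered mice correlated at 0.48 to 0.69. With the replicate block *Hsd11b2* in IC was called at 1.71 (adjusted p = 9.26e-05 by edgeR), as were *Zbtb16* in TAL, DCT and IMCD (adjusted p = 0.0212, 9.01e-05 and 1.92e-04 by edgeR) and *Per1* in TAL (0.0296). Over all genes, calls between genotypes depended on the setting: TAL had 2, and 72 with no filter, 65 with the block and 4 by DESeq2; DCT 1, and 6 with no filter, 35 with the block and 65 without knockout 1; CNT 0, and 11 with no filter, 11 with the block and 52 without knockout 1; outer CD-PC 1, and 15 with no filter and 45 with the block; IMCD 1, and 9 and 35; IC 0, and 2 and 17, and 19 without knockout 2. The order of classes changed for *Nr3c2* (IC above DCT without doublets) and *Hsd11b2* (DCT above TAL without doublets or with free RNA subtracted).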

Other observations

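*Sgk1* in PT was at 24.9, 16.3 and 28.4 CPM in control 1, control 2 and knockout 1 and at 109 CPM in knockout 2, from 325, 119, 394 and 1276 UMIs. After thinning to 1000 UMIs, 2.92%, 1.76%, 2.76% and 9.93% of PT nuclei had a UMI of it. The median depth of PT nuclei before thinning was 3024, 3693, 3026 and 3348 UMIs. In CNT and outer CD-PCs, knockout 2 was instead the lowest mouse for *Sgk1*, at 176 and 157 CPM. In thin limb nuclei *Sgk1* was at 199, 80.8, 257 and 193 CPM.

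DMEP nuclei held subunits of the channel at a low level. *Scnn1a* was at 73.4, 74.7, 124 and 101 CPM, *Scnn1b* at 57.1, 22.6, 62.1 and 60.8 CPM and *Scnn1g* at 28.5, 36.2, 85.4 and 13.5 CPM. A UMI of any subunit was found in a mean of 19.8% of DMEP nuclei after thinning, and 0 of 219 held all 3, which allows a share of up to 1.37% at this depth. Without thinning, 4 of 219 held all 3.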
